A study of Mus musculus with 6 samples.

Results

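The hnRNP proteins, the SR proteins and the main neuronal splicing regulators were described here in the brains of mice without Dap12. Their members are the probe sets, each a group of short probes for a transcript, that the platform annotation gives a single symbol for an Hnrnp gene, a numbered Srsf gene, Tra2a or Tra2b, Ptbp1 or Ptbp2, Rbfox1, Rbfox2 or Rbfox3, Nova1 or Nova2, Celf1, Celf2 or Celf4, or Mbnl1 or Mbnl2. There were 145 such probe sets for 43 genes, of 45101 probe sets on the array. The rule uses gene names and no measured values. Another 7 probe sets that named an Hnrnp or Srsf gene together with other genes were left out, so Hnrnpa1 is read from fewer probe sets than the array holds for it.

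Splicing removes introns from the primary transcript, and which exons are kept depends on proteins bound to the RNA. SR proteins carry an RNA recognition domain and an arginine- and serine-rich tail and mostly promote the use of the exons they bind. The hnRNP proteins coat nuclear transcripts and often repress exons. Rbfox, Nova, Celf, Mbnl and Ptbp proteins set exon choice in developing and mature neurons. Many of these factors also adjust their own level by splicing their own transcripts into forms that are degraded.

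The study compared 3 Dap12-ko mice with 3 Dap12-het mice, all 1 month old. Dap12, encoded by Tyrobp, is an adaptor that passes on the signal of receptors in microglia, the immune cells of the brain. The heterozygous mice carry a mutant allele too, so the contrast is between no working copy and 1 working copy, and no wild-type mouse is part of it. The design names midbrain, diencephalon and basal ganglia as the tissue, the source label of both groups reads brain of deficient mice, and the construct, strain and sex are not stated in the labels. The arrays are called knockout 67, 68 and Ko1 and heterozygous 75, 76 and 81 after the sample names. Nothing in the labels describes litters or batches, and the p-values cover only the spread among these 6 samples, which may be technical.

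Each deposited value is a linear signal with a trimmed mean of 100 on every array. Median signals were 24.6 to 40.3 on the knockout arrays and 20.3 to 21.9 on the heterozygous arrays. Tyrobp gave signals of 2.28, 23.7 and 12.9 on knockout arrays 67, 68 and Ko1 and of 70.7, 68.2 and 77.6 on the heterozygous arrays (log2 change -1.68 ± 0.33, SE, limma adjusted p = 0.0439). The position of its probe set relative to the deletion is not known here. Of the 45 spiked control probe sets, 43 had all knockout arrays above all heterozygous arrays, with a median log2 change of 1.74. The summed signal of 10 neuronal marker genes was 21350 to 25828 on the knockout arrays and 19363 to 20912 on the heterozygous arrays, and that of 10 astrocyte genes was 18579 to 20392 against 13215 to 16163. The sum of 9 oligodendrocyte genes was 29274 to 68434 against 21770 to 22578. Each sum adds the brightest probe set of every gene, so a few bright genes can carry it. The median log2 change of these probe sets was 0.04 for neuronal, -0.11 for astrocyte and 0.54 for oligodendrocyte genes. Called higher were 4 of 19 tested neuronal marker probe sets (21.1%, of Map2 and Syt1). So were 2 of 29 of astrocytes (6.9%, of Fgfr3 and Glul) and 8 of 23 of oligodendrocytes (34.8%, of Mal, Mbp and Mobp). Over all probe sets tested the share was 1.24%. In these lists none was called lower, where 0.733% of all were. The brightest probe sets of Map2, Syt1 and Fgfr3 were not called, at 0.06 ± 0.18, 0.27 ± 0.19 and -0.23 ± 0.19. Some markers were lower without passing. Syn1 was lower on every knockout array (-1.08 ± 0.24, limma adjusted p = 0.0617), and the brightest Gfap probe set changed by -1.25 ± 0.52 (0.219). At an unadjusted limma p below 0.05, 31.6% of neuronal marker probe sets were higher and 10.5% lower. For astrocytes these shares were 31% and 6.9%, for oligodendrocytes 65.2% and 0%, and for all probe sets tested 11.7% and 9.22%. The sum of 11 microglial genes was 2605 to 2932 against 1866 to 2273, that of 6 endothelial genes 474 to 707 against 541 to 612, and that of 3 blood cell genes 78.4 to 149 against 36.6 to 60.0. Of these blood cell genes only Alas2 was bright enough to be tested. The sum of 4 choroid plexus genes was 16254, 17910 and 620 on knockout arrays 67, 68 and Ko1 and 743 to 3730 on the heterozygous arrays. Ttr made up most of it on every array. No marker probe set had a signal of 0. The part of tissue make-up and of the spiked controls in the results below was not tested. In whole tissue, fewer cells of a type and less RNA per cell cannot be told apart.

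Signals were compared as log2(signal + 16) with limma, over the 22518 probe sets whose mean level lay above the median of the array, and p-values were adjusted over all of them by the Benjamini-Hochberg method. A probe set was called when its adjusted p was below 0.05, and changes are knockout minus heterozygous on this log2 scale, with standard errors. Of the members, 125 were tested, at least 1 for each of the 43 genes. Of these, 6 were below the filter's level in the heterozygous group and 1 in the knockout group. The other 20 were too dim, with no signal above 64.6; on 6 of them all knockout arrays were above all heterozygous arrays, and on 1 all were below.

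Under the deposited scaling the splicing factors changed about as all probe sets did. The median log2 change of the 125 tested members was -0.00, against 0.00 for all probe sets tested, and the median size of the change was 0.30 against 0.32. There were 62 members above 0. With arrays centred on their medians the median was -0.41 for the members and -0.40 for all, and with quantile normalization 0.06 and -0.07. Of the 125, 3 were called higher, where 1.24% of all tested probe sets were, and none was called lower, where 0.733% were. At an unadjusted p below 0.05, limma counted 20 members higher (16%) and 6 lower (4.8%), against 11.7% and 9.22% of all probe sets tested. The 3 raised probe sets belong to Hnrnpab, Mbnl2 and Srsf10.

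**Figure D1:**
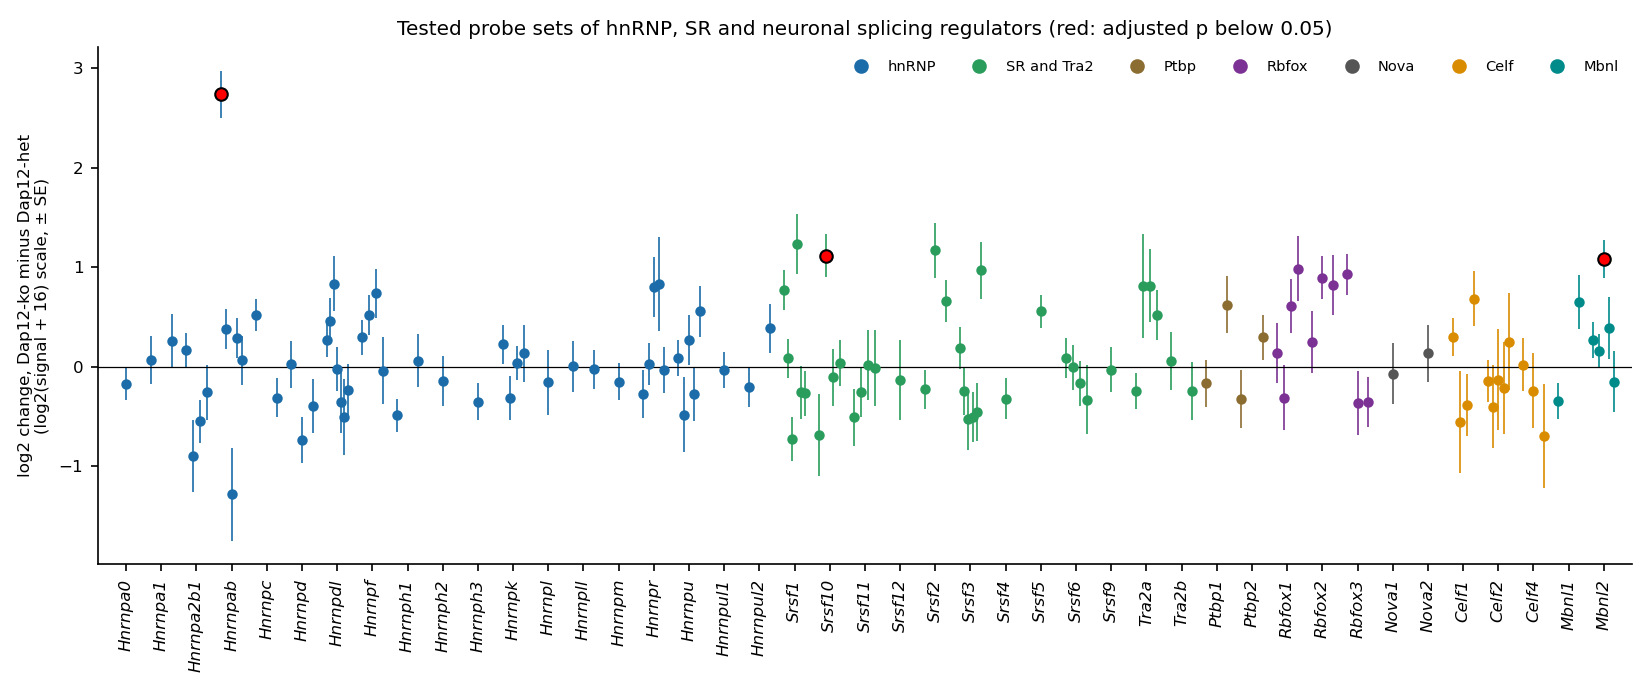
Log2 change (knockout minus heterozygous, log2(signal + 16) scale) of the 125 tested probe sets, grouped by gene on the x axis and coloured by family. Points are limma estimates, bars are standard errors, and the 3 points in red with black edges are the probe sets with an adjusted p below 0.05, 1 each for Hnrnpab, Srsf10 and Mbnl2.

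Hnrnpab, an hnRNP protein that binds trafficking elements in transcripts carried into cell processes, such as that of myelin basic protein, had the member probe set with the largest change. Its probe set 1426114_at gave signals of 3853, 2815 and 2915 on knockout arrays 67, 68 and Ko1 and of 336, 598 and 485 on heterozygous 75, 76 and 81. All 3 knockout arrays were far above all 3 heterozygous arrays, and the groups did not overlap. The mean rose from 473 ± 131 to 3.19e+03 ± 573 (SD, n = 3), a log2 change of 2.74 ± 0.24 (limma adjusted p = 0.0128). It was also the highest member signal on each knockout array, where the highest member signals of the heterozygous arrays were 1797 to 2013.

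Mbnl2 encodes a muscleblind protein that promotes adult patterns of splicing in the brain and is sequestered by expanded repeat RNA in myotonic dystrophy. Its probe set 1436858_at gave 677, 777 and 722 on knockout arrays 67, 68 and Ko1 and 314, 412 and 285 on the heterozygous arrays. The knockout values were close together and all above the heterozygous values. The mean rose from 337 ± 66.5 to 725 ± 49.7 (SD, n = 3), a log2 change of 1.08 ± 0.19 (limma adjusted p = 0.0385).

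Srsf10 encodes an SR protein that becomes a general repressor of splicing when it loses its phosphates. Its probe set 1418527_a_at gave 101, 107 and 98.6 on the knockout arrays and 33.5, 46.5 and 36.2 on the heterozygous arrays, again without overlap. The mean rose from 38.8 ± 6.86 to 102 ± 4.56 (SD, n = 3), a log2 change of 1.12 ± 0.21 (limma adjusted p = 0.0419).

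These calls depended on single arrays to different degrees. Across the alternatives that tested it, the Hnrnpab probe set passed in 15 of 19, with log2 changes from 2.34 to 2.92, and it lost its call without knockout 67 (limma adjusted p = 0.0583), knockout 68 (0.0982), heterozygous 75 (0.0586) or heterozygous 81 (0.0937). The Mbnl2 probe set passed in 9 of 18, with changes from 0.68 to 1.23 and adjusted p up to 0.202, and the Srsf10 probe set in 7 of 17, with changes from 0.70 to 1.41 and adjusted p up to 0.225. Both lost the call without any 1 array other than knockout Ko1, for Mbnl2 with adjusted p of 0.100, 0.150, 0.202, 0.103 and 0.163 without 67, 68, 75, 76 and 81, and for Srsf10 with 0.107, 0.152, 0.225, 0.124 and 0.164. Over all probe sets, none was called without 67, 68, 75 or 81. Centring every array on its median lowered the changes of all probe sets by a median of 0.40, and only the Hnrnpab probe set of the 3 was then called (2.34, adjusted p = 0.0146).

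The promoters of the 3 genes with a raised probe set are shown because these are the members called by the test. Promoters of 39 of the 43 genes matched the RefSeq table for GRCm38.p6. For each gene the first listed promoter was taken, here and in the shares below. Printed are the 250 bases before the annotated start, 5′ to 3′ on the gene's strand, with the GC box (GGGCGG, reverse CCGCCC) and the CCAAT box (CCAAT, reverse ATTGG) in capitals. The Hnrnpab promoter lies at chr11:51606882-51607131 on the minus strand, that of Mbnl2 at chr14:120275419-120275668 on the plus strand, and that of Srsf10 at chr4:135855821-135856070 on the plus strand.
Hnrnpab: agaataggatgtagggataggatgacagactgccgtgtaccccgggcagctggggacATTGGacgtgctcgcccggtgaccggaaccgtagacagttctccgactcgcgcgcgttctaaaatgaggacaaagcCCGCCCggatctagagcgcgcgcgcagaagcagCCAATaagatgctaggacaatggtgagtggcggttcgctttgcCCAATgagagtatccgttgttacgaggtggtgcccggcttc
Mbnl2: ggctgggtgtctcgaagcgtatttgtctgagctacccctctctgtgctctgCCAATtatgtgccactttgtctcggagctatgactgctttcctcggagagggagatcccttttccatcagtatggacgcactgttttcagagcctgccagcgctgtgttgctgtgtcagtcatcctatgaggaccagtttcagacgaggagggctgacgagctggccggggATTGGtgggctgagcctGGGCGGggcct
Srsf10: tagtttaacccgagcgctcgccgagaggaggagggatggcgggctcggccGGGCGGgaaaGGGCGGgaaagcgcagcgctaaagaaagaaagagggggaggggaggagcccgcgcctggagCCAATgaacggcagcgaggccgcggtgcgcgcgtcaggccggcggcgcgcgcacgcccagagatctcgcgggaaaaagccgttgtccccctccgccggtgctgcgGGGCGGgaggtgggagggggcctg
All 3 hold at least 1 GC box and at least 1 CCAAT box, and they hold 23, 10 and 33 CpG dinucleotides. Over the members, 27 of 39 promoters held a GC box (69.2%), against 32.9% of the 27025 promoters of the table, non-coding genes included. A CCAAT box stood in 19 (48.7%), against 34.5%, and a TATA box (TATAAA, reverse TTTATA) in 5 (12.8%), against 13%. Member promoters had a median of 19 CpG dinucleotides, against 6 over the table, and a median GC content of 60.8% against 52%. These matches describe letters in the window, and binding was not measured.

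**Figure D2:**
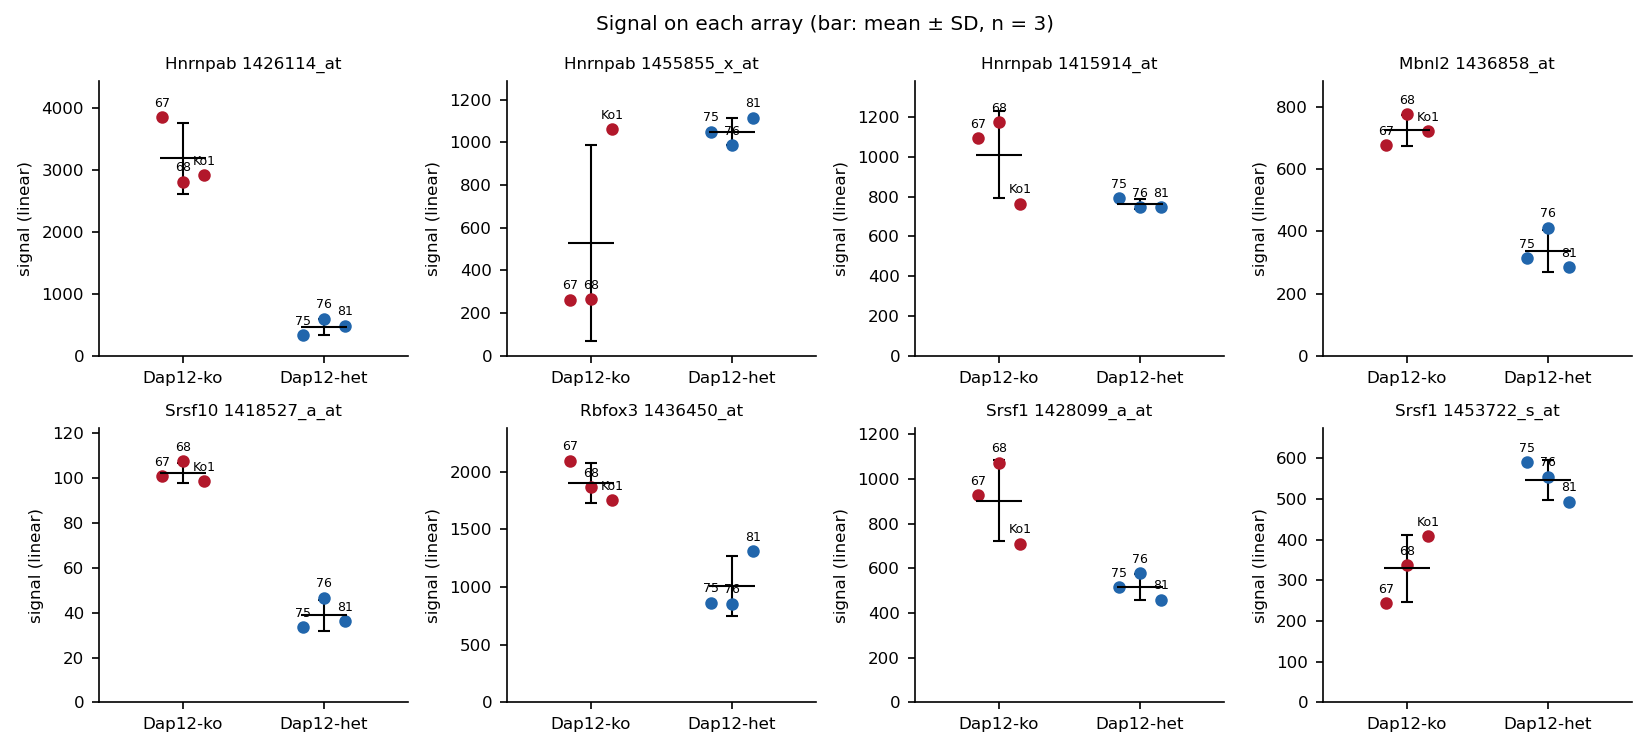
Linear signal on each array (points, named by sample) for 8 member probe sets, with the mean and SD of each group (n = 3). The Hnrnpab probe set 1426114_at lies between 2815 and 3853 in the knockout group and between 336 and 598 in the heterozygous group, while on Hnrnpab 1455855_x_at knockout 67 and 68 lie low and Ko1 lies among the heterozygous arrays.

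The hnRNP genes, with 53 of 58 probe sets tested over 19 genes, had a median log2 change of 0.00, with 1 probe set called higher and none lower. The ranges of the groups did not overlap for 6 hnRNP probe sets with knockout higher and 5 with knockout lower. Over all 125 members the figures were 21 higher (16.8%) and 9 lower (7.2%), where 14.9% and 12.5% of all probe sets tested were non-overlapping in these directions.

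Hnrnpc, which binds uridine tracts and masks cryptic exons, had the next smallest p among increases of the family. Its probe set 1460240_a_at gave 1815, 1578 and 1516 on knockout arrays 67, 68 and Ko1 and 1143, 1050 and 1200 on the heterozygous arrays. The groups were apart, but the change of 0.52 ± 0.16 did not pass (limma adjusted p = 0.118). Its other tested probe set changed by -0.31 ± 0.19, with all knockout arrays below.

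Hnrnpd (AUF1), which binds AU-rich elements and hastens the decay of transcripts, had the decrease with the smallest p. Its probe set 1457568_at gave 232, 164 and 279 on the knockout arrays and 416, 322 and 398 on the heterozygous arrays. All knockout values were lower, with a change of -0.73 ± 0.23 that did not pass (limma adjusted p = 0.129). The brighter Hnrnpd probe set 1425142_a_at had a change of 0.03 ± 0.24.

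Hnrnph1, Hnrnph2, Hnrnph3 and Hnrnpf bind runs of guanine. The Hnrnph1 probe set 1415872_at gave 872, 830 and 822 on the knockout arrays and 1113, 1076 and 1393 on the heterozygous arrays. The knockout group lay wholly below the other, at -0.49 ± 0.17 (limma adjusted p = 0.155), while the dim Hnrnph1 1437267_x_at overlapped between groups, at 0.06 ± 0.26. Hnrnph3 was also lower on every knockout array, at -0.35 ± 0.18. Hnrnpf had 4 tested probe sets with changes from -0.04 to 0.74, of which 1423382_a_at and 1450963_at were higher on every knockout array without passing (adjusted p = 0.191 and 0.144).

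Hnrnpa2b1, the other hnRNP protein of transcript transport and a partner of Hnrnpa1 in exon repression, differed between its probe sets. The bright 1420365_a_at gave 1244, 1284 and 1613 on the knockout arrays and 1127, 1370 and 1173 on the heterozygous arrays. The groups overlapped, and the 95% interval of the change was -0.23 to 0.57. The dimmer 1433829_a_at gave 222 and 194 on knockout 67 and 68 but 577 on Ko1, inside the heterozygous range of 526 to 581. Its change of -0.90 ± 0.36 did not pass (limma adjusted p = 0.205). Another probe set, 1433830_at, was lower on every knockout array, at -0.55 ± 0.21.

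Hnrnpk, which binds C-rich sequence, gave 1643, 2000 and 2414 on the knockout arrays and 1893, 1797 and 1440 on the heterozygous arrays with 1460547_a_at. The groups overlapped, and the interval of the change was -0.22 to 0.68. Hnrnpdl had 7 tested probe sets with changes from -0.50 to 0.83. Its brightest, 1424251_a_at, gave 1864, 1980 and 2194 against 1533, 1478 and 2013, which overlapped (interval -0.13 to 0.68). Its 1449039_a_at and 1420093_s_at were higher on every knockout array, at 0.83 ± 0.28 and 0.46 ± 0.23. Neither passed (limma adjusted p = 0.139 and 0.295), and no Hnrnpdl probe set was lower on every knockout array.

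Hnrnpu (SAF-A), a nuclear scaffold protein, had 5 tested probe sets with changes from -0.48 to 0.56. On 1450849_at, Ko1 alone was low, with signals of 698, 811 and 258 on knockout arrays 67, 68 and Ko1 and 676, 771 and 794 on the heterozygous arrays. Hnrnpr had 5 tested probe sets between -0.27 and 0.83. Both tested Hnrnpa1 probe sets overlapped between groups, at 0.07 ± 0.24 and 0.26 ± 0.26. The single tested probe sets of Hnrnpa0, Hnrnph2, Hnrnpl, Hnrnpm and Hnrnpul1 and both of Hnrnpll and of Hnrnpul2 had changes from -0.20 to 0.39, all with overlapping groups. Of the 43 genes, Hnrnpl, Hnrnpul1 and Nova2 lie on chromosome 7 with Tyrobp, and their tested probe sets changed by -0.16 ± 0.32, -0.03 ± 0.18 and 0.14 ± 0.29.

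The SR and Tra2 genes, with 37 of 44 probe sets tested over 12 genes, had a median log2 change of -0.03. Besides the called Srsf10 probe set, those of Srsf2 and Srsf1 came closest to the threshold, with knockout higher and limma adjusted p from 0.07 to 0.0868. The groups did not overlap for 8 probe sets with knockout higher (21.6%, against 14.9% of all) and 3 with knockout lower (8.11%, against 12.5%). Of the 37, 3 were below the filter's level in the heterozygous group and were tested through the knockout group.

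Srsf1, the first described SR protein and an antagonist of Hnrnpa1 at alternative splice sites, had tested probe sets from -0.73 to 1.23. Its 1452430_s_at gave 256, 536 and 254 on knockout arrays 67, 68 and Ko1 and 151, 136 and 108 on the heterozygous arrays. All knockout values were higher, at 1.23 ± 0.30 (limma adjusted p = 0.0739). The brightest, 1428099_a_at, gave 927, 1071 and 710 against 516, 577 and 459, a change of 0.77 ± 0.20 (adjusted p = 0.0868). The opposite was read by 1453722_s_at, with 243, 337 and 408 against 591, 555 and 493. There all knockout values were lower, at -0.73 ± 0.22 (adjusted p = 0.118).

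Srsf2 (SC35), a protein of nuclear speckles, rose on none of its probe sets by the test. Its 1415807_s_at gave 360, 417 and 206 on the knockout arrays and 149, 139 and 108 on the heterozygous arrays. The groups were apart, at 1.17 ± 0.28 (limma adjusted p = 0.07), and 1452439_s_at was likewise higher on every knockout array, at 0.66 ± 0.21 (adjusted p = 0.124). The brighter 1427504_s_at overlapped between groups, at -0.23 ± 0.20.

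Srsf5 was read by a single probe set, 1423130_a_at, with 1518, 1745 and 1489 on the knockout arrays and 950, 1106 and 1160 on the heterozygous arrays. All knockout values were higher, at 0.56 ± 0.16 (limma adjusted p = 0.111). Srsf3, the smallest SR protein, had 6 tested probe sets from -0.53 to 0.97. Its brightest, 1416150_a_at, gave 530, 555 and 727 against 596, 570 and 421 and overlapped (interval -0.29 to 0.67). The highest Srsf3 change came from the dim 1438215_at, which was below the filter's level in the heterozygous group (adjusted p = 0.11).

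Srsf11 1452371_at gave 332, 275 and 592 on the knockout arrays and 504, 478 and 673 on the heterozygous arrays. Knockout 67 and 68 were low there and Ko1 was inside the heterozygous range, at -0.51 ± 0.29. The other tested probe sets of Srsf10, and those of Srsf4, Srsf6, Srsf9 and Srsf12, had changes from -0.68 to 0.08, and all overlapped between groups.

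Tra2a and Tra2b are SR-like activators, and Tra2b promotes inclusion of an SMN exon in human cells. The brightest Tra2b probe set, 1427432_a_at, gave 560, 510 and 1051 on knockout arrays 67, 68 and Ko1 and 586, 820 and 553 on the heterozygous arrays. Ko1 was the high array, and the change was 0.06 ± 0.29. Tra2a 1454725_at gave 188, 181 and 208 against 248, 235 and 209, just without overlap, at -0.24 ± 0.18. The 3 dimmer Tra2a probe sets had changes of 0.52 to 0.82, none called, and 1455933_at and 1442886_at of them were tested only through the knockout group, since their heterozygous level was below the filter.

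Rbfox genes, which encode readers of the GCAUG element in neurons and muscle, had a median log2 change of 0.43 over 10 tested probe sets, with none called and 4 (40%, against 14.9% of all) higher on every knockout array. Rbfox1 1447735_x_at and Rbfox2 1418247_s_at, which are among the 4, were below the filter's level in the heterozygous group and were tested only because the knockout group was high. Over the 8 probe sets with both groups above that level the median was 0.20, and 2 were higher on every knockout array. Under the same scaling the median over all probe sets tested was 0.00.

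Rbfox3 is the neuronal nuclear antigen NeuN. Its probe set 1436450_at gave 2094, 1862 and 1752 on knockout arrays 67, 68 and Ko1 and 865, 854 and 1311 on the heterozygous arrays. All knockout arrays were higher, at 0.93 ± 0.21, just short of the threshold (limma adjusted p = 0.0587). The dimmer 1456149_at and 1427286_at had changes of -0.36 ± 0.32 and -0.35 ± 0.25 with overlapping groups. Rbfox2 1434938_at gave 103, 127 and 89.8 against 48.9, 47.6 and 52.1, higher on every knockout array at 0.90 ± 0.21 (adjusted p = 0.0709). The brightest Rbfox2 and Rbfox1 probe sets overlapped between groups, with intervals of -0.45 to 0.96 and -0.54 to 0.82.

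Ptbp1 represses neuronal exons in progenitors and glia, and Ptbp2 replaces it in maturing neurons. Ptbp1 1424874_a_at gave 147, 169 and 94.3 on the knockout arrays and 158, 159 and 137 on the heterozygous arrays. These overlapped, as did its second probe set 1458284_at (0.63 ± 0.28, limma adjusted p = 0.252). Ptbp2 1423470_at gave 367, 432 and 840 against 691, 596 and 648. Knockout 67 and 68 were below the heterozygous range and Ko1 above it, at -0.32 ± 0.29.

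Nova1 and Nova2, neuronal proteins that bind YCAY elements through KH domains, had 1 tested probe set each. Nova1 gave 287, 427 and 191 on the knockout arrays and 393, 276 and 251 on the heterozygous arrays. Nova2 gave 313, 131 and 204 against 172, 190 and 191. The knockout values of both straddled the heterozygous ones, with intervals of -0.75 to 0.62 and -0.52 to 0.79.

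Celf genes, whose products bind GU-rich elements and often oppose Mbnl proteins on the same exons, had a median change of -0.18 over 12 tested probe sets, with none called. Celf4 1426930_at gave 150, 149 and 733 on knockout arrays 67, 68 and Ko1 and 435, 405 and 444 on the heterozygous arrays. The knockout arrays lay on both sides of the heterozygous range, and the change of -0.70 ± 0.52 did not pass (limma adjusted p = 0.482). The brightest Celf4 probe set, 1452240_at, gave 719, 744 and 1412 against 826, 904 and 964, with 67 and 68 again below and Ko1 above the heterozygous range. Celf1 1426407_at gave 1479, 1235 and 1644 against 1023, 1118 and 1402 and overlapped, at 0.30 ± 0.19. Celf1 1425932_a_at was the only tested Celf probe set with all knockout arrays above, at 0.69 ± 0.28 (adjusted p = 0.21). Celf2 1451154_a_at gave 586, 430 and 431 against 440, 596 and 562, with an interval of -0.61 to 0.33.

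Mbnl1, the muscleblind paralog, gave 858, 939 and 1090 on the knockout arrays and 1169, 1101 and 1405 on the heterozygous arrays with 1416904_at. All knockout values were lower, at -0.34 ± 0.18, which did not pass (limma adjusted p = 0.312), and its dim 1457924_at was higher on every knockout array, at 0.65 ± 0.27 (adjusted p = 0.222). The brightest Mbnl2 probe set, 1455827_at, gave 1741, 1869 and 1372 against 1254, 1298 and 1542. Its groups overlapped, at 0.27 ± 0.18 (adjusted p = 0.425), so 1 of the 5 tested Mbnl2 probe sets was called. The dimmer 1433754_at, 1457477_at and 1457237_at changed by 0.16, 0.39 and -0.15.

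The changes read by probe sets of the same gene were then compared. Of the 31 member genes with at least 2 tested probe sets, 29 had changes of both signs, at a median of 4 probe sets a gene. Over all 5190 genes with at least 2, the share was 61.5%, at a median of 2 probe sets a gene, and a gene with more probe sets has more chances of both signs. To test the disagreement itself, the log2 ratio of each dimmer probe set to the brightest of its gene was compared between groups with limma, adjusted over 8455 pairs. Of 82 member pairs, 10 differed (12.2%), near the 9.8% of all pairs, and they came from 5 genes. Pairs of a gene share the brightest probe set and are not independent. Which transcript form each probe set reads was not resolved here.

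For Hnrnpab all 4 pairs differed, each in the direction of a larger rise of 1426114_at. Its 1415914_at gave 1093, 1174 and 763 on the knockout arrays and 792, 746 and 748 on the heterozygous arrays. These overlapped at 0.38 ± 0.20, and the difference between the pair was -2.36 ± 0.29 (limma adjusted p = 0.00798). On 1455855_x_at the values read 263, 266 and 1060 on knockout arrays 67, 68 and Ko1 and 1049, 985 and 1115 on the heterozygous arrays. Knockout 67 and 68 were low and Ko1 was not, the change was -1.28 ± 0.47 (adjusted p = 0.17), and the difference was -4.02 ± 0.52. The other differences were -2.67 and -2.45. The probe set 1426114_at is the brightest of Hnrnpab only through the knockout arrays, since 1455855_x_at had the higher signal on the heterozygous ones.

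The called Srsf10 probe set differed from the brightest one of its gene by 1.80 ± 0.44 (limma adjusted p = 0.033). That brightest probe set, 1423982_at, gave 33.0, 64.6 and 149 on knockout arrays 67, 68 and Ko1 and 131, 150 and 93.6 on the heterozygous arrays. Its low arrays were 67 and 68. Srsf1 differed in 2 pairs, by -1.50 ± 0.31 and -1.03 ± 0.28, and Rbfox3 in 2, by -1.28 ± 0.30 and -1.29 ± 0.34. Srsf2 differed in 1, by 1.39 ± 0.33 (adjusted p = 0.0316). No Mbnl2 pair was called. By the manufacturer's suffix, 71 tested members were plain, with 2 called, 29 of type a (transcripts of 1 gene), with 1 called, 14 of type s (shared by several transcripts) and 11 of type x (which may cross-hybridise), with none called in either of the last types. At an unadjusted p below 0.05, limma counted 10 plain members (14.1%), 9 of type a (31%), 5 of type s (35.7%) and 2 of type x (18.2%). Over all probe sets tested, of any suffix, the share was 20.9%. It was not computed by suffix, so whether these shares are unusual for their suffix is not known.

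**Figure D3:**
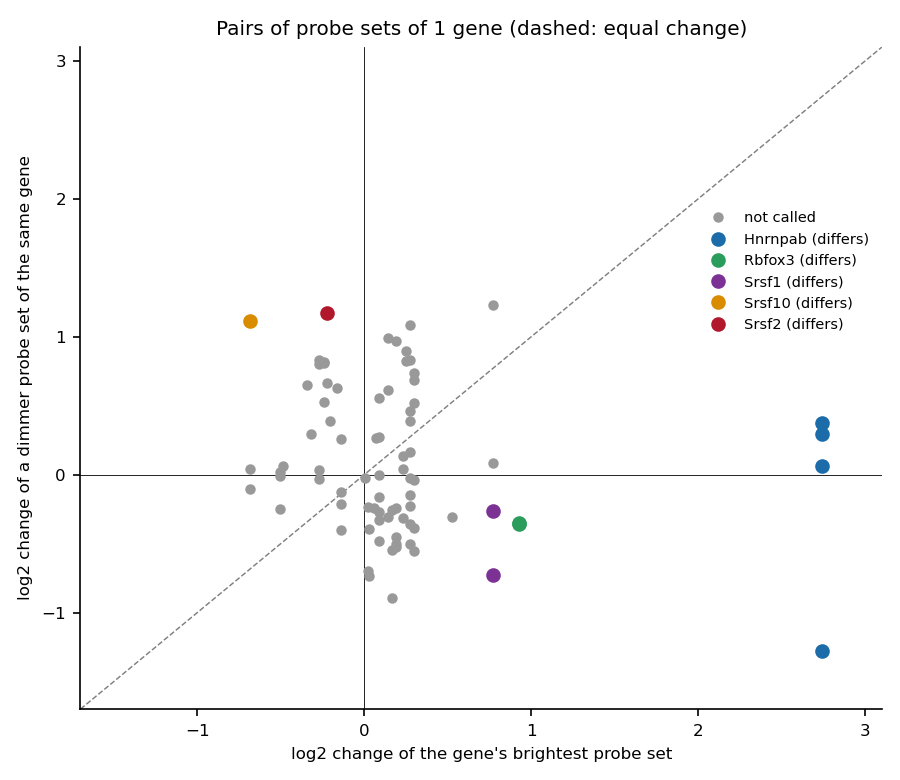
Log2 change of the brightest probe set of a gene (x axis) against that of each dimmer probe set of the same gene (y axis) for 82 pairs, with the dashed line at equal change. The 10 coloured points are the pairs that differed by limma, and the 4 of Hnrnpab stand at 2.74 on the x axis with y values from -1.28 to 0.38.

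As over all probe sets, knockout 67 and 68 were alike over the members, and Ko1 correlated more with the heterozygous arrays than with them. Over the 125 members, Pearson's r of the log2 signals was 0.948 between 67 and 68, 0.845 to 0.884 between either and the heterozygous arrays, 0.861 and 0.871 between Ko1 and 67 and 68, 0.932 to 0.944 between Ko1 and the heterozygous arrays, and 0.961 to 0.986 among the heterozygous arrays. Over all probe sets tested, r was 0.928 between 67 and 68, 0.851 and 0.877 between Ko1 and these, and 0.909 to 0.930 between Ko1 and the heterozygous arrays. These are descriptions across probe sets, which share the array's scaling. The median log2 difference from the heterozygous mean was 0.00, 0.06 and 0.18 on knockout arrays 67, 68 and Ko1 for the members, and 0.04, 0.03 and 0.01 for all probe sets.

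On 24 of the 125 members, or 19.2%, knockout 67 and 68 both lay below the heterozygous range while Ko1 did not, against 13.1% of all probe sets tested. The reverse, with 67 and 68 both above and Ko1 not, held for 11 (8.8%), against 13.7%. Of the 12 Celf probe sets, 5 had the low pattern, as did 8 of 53 hnRNP and 7 of 37 SR and Tra2, 3 of 10 Rbfox and 1 of 4 Ptbp probe sets, while none of the 7 Mbnl or 2 Nova probe sets did. The choroid plexus sum moved with the same arrays, at 16254 and 17910 on 67 and 68 and 620 on Ko1. It was mostly the signal of Ttr, at 16069, 17643 and 402. On the brightest probe sets of Kl and Folr1, Ko1 was above every heterozygous array, at 26.6 and 24.0, but below 67 and 68. Those arrays gave 50.9 and 73.3 for Kl and 49.1 and 71.6 for Folr1. For Clic6 the signals were 84.9, 122 and 168 on 67, 68 and Ko1, against 55.9 to 164 on the heterozygous arrays. The part of the choroid plexus in this pattern was not tested.

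Without Ko1, limma called 24 members higher and 16 lower, where 11.9% and 11.3% of all probe sets were called. Without 67 and 68, with Ko1 as the lone knockout array and assumed to vary like the others, 1 member was called higher, the Hnrnpab probe set 1426114_at (2.62, adjusted p = 0.0248), and 1 lower, Hnrnpu 1450849_at (-1.47, adjusted p = 0.0248). In that setting 1.05% and 1.7% of all probe sets were called higher and lower, so a count of 1 of 124 each way is about the background.

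**Figure D4:**
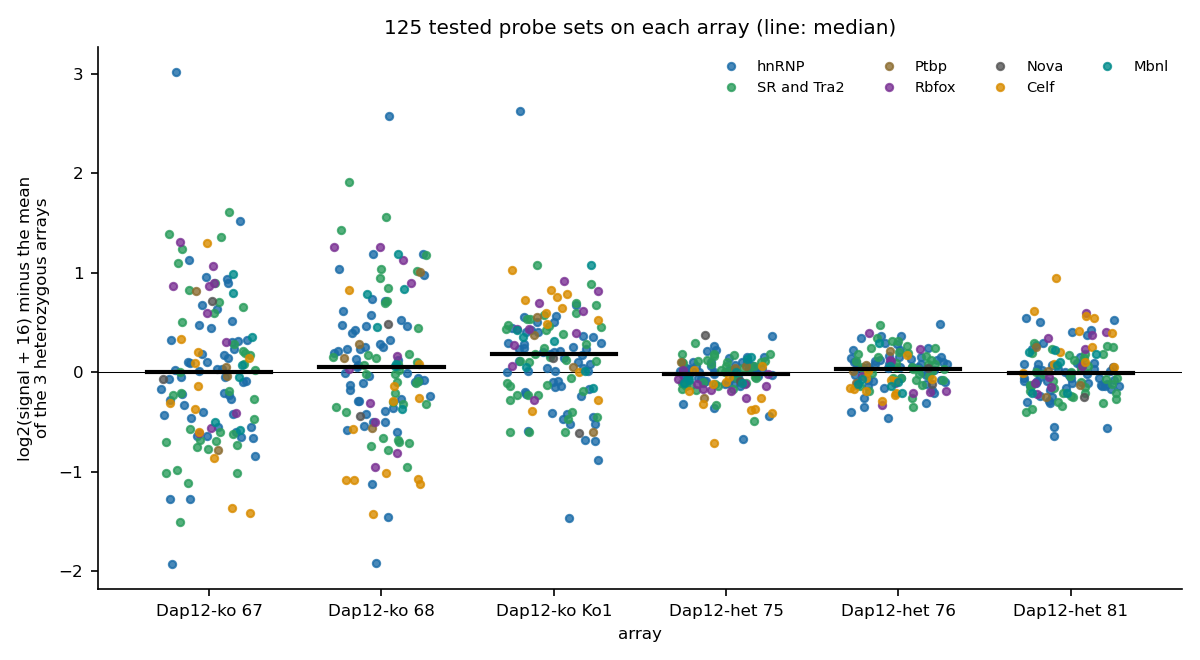
Difference of log2(signal + 16) from the mean of the 3 heterozygous arrays (y axis) for the 125 tested member probe sets on each array (x axis), coloured by family, with the median as a line. The heterozygous arrays lie closer to 0 because they make up that mean. The Hnrnpab probe set 1426114_at stands alone at the top of each knockout array, and the median is 0.18 on Ko1.

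Members were also grouped by their heterozygous mean signal, which is the term subtracted in the change. Together with the filter on the mean of all arrays, this pushes the dimmest group to increases by construction. The 16 members with a heterozygous mean signal below 50 had a median log2 change of 0.59, against 0.34 for all such probe sets, and they include the called one of Srsf10. A dim probe set can pass the filter through the group where it is high, and of all 6135 probe sets in that group 148 were called higher and 0 lower. No conclusion on brightness is drawn from it. The 30 members from 50 to 200 had a median of 0.02 (-0.06 for all), the 44 from 200 to 500 one of -0.19 (-0.21), and the 35 at 500 and above one of 0.04 (-0.13).

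Other parts of the splicing machinery were read from lists of 92 genes, of which 85 were tested with 227 probe sets. Their median log2 change was -0.03, with 2 probe sets called higher (0.881%, against 1.24% of all) and 4 lower (1.76%, against 0.733%). The list of Sm and U1 proteins had 1 call in each direction over 10 genes. It also holds Snrpa1 of the U2 particle, which was its lower call. Branch point and 3' splice site factors had 1 higher over 13 and the tri-snRNP and catalytic core 1 lower over 15. SR-related proteins had 1 lower over 11, and other RNA-binding regulators 1 lower over 28. The 8 SR protein kinases had no call, with 3 of 18 probe sets higher (16.7%) and 1 lower (5.56%) at an unadjusted limma p below 0.05, against 11.7% and 9.22% of all.

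Prpf8, the protein at the heart of the spliceosome, gave 350, 280 and 465 on knockout arrays 67, 68 and Ko1 and 736, 801 and 770 on the heterozygous arrays with 1422453_at. All knockout arrays were lower, at -1.07 ± 0.21 (limma adjusted p = 0.046). Ewsr1, of the FET family of RNA-binding proteins, gave 277, 205 and 276 against 625, 630 and 693 with 1436884_x_at, of type x. The groups were also apart, at -1.32 ± 0.19 (adjusted p = 0.0242). Scaf1, an SR-related protein that binds the tail of RNA polymerase II, changed by -1.93 ± 0.30 (adjusted p = 0.0287), and Snrpa1, of the U2 particle, by -1.44 ± 0.29 (adjusted p = 0.0485).

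Snrpn, the neuronal Sm protein, gave 148, 157 and 109 on the knockout arrays and 58.3, 49.8 and 39.5 on the heterozygous arrays with 1432096_at. This dim probe set was higher on every knockout array, by 1.24 ± 0.23 (limma adjusted p = 0.0391). Sf3b4, a subunit of the branch point complex, gave 181, 150 and 177 against 75.3, 89.5 and 60.8 with 1436784_x_at, of type x. The change was 1.03 ± 0.21 (adjusted p = 0.0491). Each call in these lists was read by 1 probe set, named for its small p. No other probe set of these genes was called, and any others are not described here. Syncrip, a relative of Hnrnpr, missed the threshold at 1.35 ± 0.28 (adjusted p = 0.0507), as did Pnn (1.38 ± 0.38, adjusted p = 0.092), Srpk2 (1.01 ± 0.30, 0.116) and Crnkl1 (0.57 ± 0.20, 0.16). Sf3b2 (-0.57 ± 0.22, 0.189) and Clk2 (-0.74 ± 0.30, 0.203) had the decreases with the smallest p in their lists.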

How the data were processed

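Total RNA was extracted with Trizol and RNeasy columns and labelled with biotin by the Affymetrix one-cycle method, per the labels' protocols. The deposited values are linear signal intensities that the authors obtained with GCOS, per the submitters' processing notes, whose version, summary algorithm and detection calls are not given in the sources used here. After removal of 2% of values at either end, deposited intensities averaged 100 on each array, and that scaling was kept. Control probe sets (64) were left out.

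Groups followed the sample names. Signals were tested as log2(signal + 16), which understates the change of dim probe sets, for the 50% of probe sets with the highest mean (a signal of about 24.2), with limma 3.58.1 in R 4.3.3 (lmFit, eBayes with trend, two-sided, Benjamini-Hochberg, threshold 0.05). Pairs of probe sets were compared by the same fit on their log2 ratios. An exact permutation test of 3 arrays against 3 cannot go below 0.1. The number of arrays limits the precision. The procedure was tested on simulated data. The 19 alternatives changed the normalization, the added constant, the level filter, the eBayes settings, array weights or the probe sets per gene, or left out arrays.

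The members, gene lists and tests were chosen with earlier results of these data known. The probe sets named were those called, the brightest of each called gene, the smallest p of each family or list in each direction, the brightest of each Ptbp, Rbfox, Nova, Celf, Mbnl and Tra2 gene and of the 5 brightest hnRNP and Srsf genes, and the 5 pairs with the smallest p. Others are given for completeness or were chosen after their values were seen. Of all probe sets, 34945 had 1 gene symbol, 932 several and 9160 none. Sequences are from RefSeq.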

Additional observations from a re-analysis of the deposited data

Results flagged for a closer look

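The spiked controls, which are added to the sample and lie outside the measured transcripts, had a median log2 change of 1.74 (knockout minus heterozygous). They are given here because a difference between the groups appears in probe sets that the comparisons do not use. Their geometric mean signal was 8593, 5393 and 5533 on knockout arrays 67, 68 and Ko1, against 1783, 1814 and 1962 on the heterozygous arrays. The TrpnX controls, which were dim on every array, were left out of this mean.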

How the results depend on the processing

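With each array in turn left out, the count of all called probe sets ran from 0 to 5226 (445 with all 6), that of members called higher from 0 to 24, lower from 0 to 16, and that of pairs that differ from 1 to 39. Where no probe set was called, limma counted 2896 to 3887 at an unadjusted p below 0.05. The highest counts were those without Ko1. Without Ko1 and heterozygous 81 together, 4685 probe sets, 24 members higher, 16 lower and 36 pairs were called; without knockout 67 and 68 together, 1 member higher, 1 lower and 2 pairs. Array weights gave 4786 probe sets, 22 higher, 9 lower and 40 pairs. Quantile normalization gave 127 probe sets, no filter 124, a filter on both group means 261, no trend 180 and the brightest probe set per gene 116. Members higher numbered 1 with median centring, no filter, no trend and the brightest probe set, and pairs numbered 6 with 75% of probe sets removed. Median centring made 17.2% of all calls higher, against 62.9% under the deposited scaling. The causes of these moves were not tested.

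Of 686 comparisons over 37 followed probe sets, 577 kept direction and call, 39 gained a call, 23 lost one and 47 changed sign, none of them called under the deposited scaling with all arrays. With median centring the changed values were -0.13 (Mbnl2 1455827_at), -0.27 (Nova2), -0.34 (Tra2b), -0.26 (Rbfox1), -0.15 (Rbfox2), -0.10 (Celf1), -0.38 (Celf4 1452240_at), -0.17 (Hnrnpk), -0.13 (Hnrnpdl), -0.23 (Hnrnpa2b1), -0.21 (Srsf3) and -0.34, -0.025 and -0.11 (Hnrnpab 1448144_at, 1415914_at and 1453849_s_at). Nova1 turned to 0.069 with quantile normalization. With array weights they were 0.10 (Nova1), -0.049 (Nova2), -0.20 (Tra2b), -0.14 (Celf4) and -0.092 (Hnrnpab 1448144_at). Without 67 and 68 they were 0.24 (Srsf10 1423982_at), 0.38 (Ptbp2), 0.060 (Rbfox3 1427286_at), 0.76 (Celf4 1426930_at), -0.28 (Rbfox2), 0.12 (Srsf11) and 0.015 (Hnrnpab 1455855_x_at). Without Ko1 and 81 they were 0.085 (Nova1), -0.36 (Tra2b), -0.24 (Celf4), -0.025 (Hnrnpk), -0.10 (Srsf3) and -0.00079 (Hnrnpab 1448144_at). With 1 array left out, values of both signs ran from -0.34 to 0.21 (Nova1), -0.15 to 0.43 (Nova2), -0.26 to 0.25 (Tra2b), -0.32 to 0.053 (Ptbp1), -0.023 to 0.44 (Rbfox1), -0.057 to 0.51 (Rbfox2), -0.29 to 0.19 (Celf4 1452240_at) and -0.13 to 0.23 (Hnrnpab 1448144_at).

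No paired analysis was possible because the groups share no replicate numbers. Dim probe sets are limited by background, and the wide intervals leave changes of most members unresolved at 3 arrays a group.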
